A study of Rattus norvegicus with 9 samples.

Results

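Isolated rat ureteric buds grown in purified pleiotrophin (PTN) were compared with buds grown in both other media of the study. The comparison set the 3 PTN arrays of 9 in all against the mean of the BSN and HRG group means, each of 3 arrays, over every probe set that is not a spiked or hybridisation control. A probe set was called particular to PTN when it passed the test in this pooled comparison and also against BSN alone and against HRG alone, with one sign throughout. All buds were dissected from Sprague-Dawley embryos at embryonic day 13 and cultured for 4 days in a gel of equal parts type 1 collagen and Matrigel of reduced growth factor content (50% each), with FGF1 at 250 ng/ml and GDNF at 125 ng/ml. The BSN group had, in addition, medium conditioned by BSN cells, a metanephric mesenchymal line. The HRG group had human recombinant heregulin alpha at 500 ng/ml. The PTN group had pleiotrophin purified from BSN conditioned medium, at about 3 µg/ml. Each sample pooled the RNA of 3 buds, which went through 2 rounds of linear amplification. The labels disagree on the morphology of PTN cultures: the series title counts them as branching, and the description of the PTN samples as non-branching. No group had FGF1 and GDNF alone, so a level particular to PTN is relative to the 2 other supplements. The same 3 PTN arrays enter the comparison with BSN and the comparison with HRG, so these are not independent of each other.

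Pleiotrophin is a small secreted heparin-binding growth factor, related to midkine, that binds cell-surface and matrix proteoglycans and is known to promote branching of isolated ureteric buds. The ureteric bud is the epithelial outgrowth of the nephric duct. Its tips carry the GDNF receptor Ret and divide as they branch, and its trunks mature into collecting ducts, which carry water channels and salt transporters.

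Arrays of one group had a Pearson's r of 0.946 to 0.979 across probe sets, against 0.917 to 0.937 between PTN and BSN arrays and 0.882 to 0.922 between PTN and HRG arrays. PTN replicate 1 was the least like its group, with r of 0.946 and 0.947 to the other PTN arrays, which had r of 0.979 with each other. The trimmed mean signal was 2498.39 to 2501.01 over all arrays. For actin the ratio of 3' to 5' control probe signal, a sign of RNA integrity and amplification length, was 15.3 to 18.1 in PTN, 28.0 to 37.8 in BSN and 18.6 to 29.6 in HRG (exact two-sided permutation p = 0.0238, PTN against the other 6 arrays, the smallest that this split can give). The actin 3' signal itself was also lower in PTN, at 6508.5 to 10867.1 against 11827.3 to 27020.7 on the other 6 arrays (exact permutation p = 0.0238). The GAPDH ratio overlapped between groups (exact permutation p = 0.286). These controls moved with the PTN group, and their part in the results was not tested. The number of arrays limits the precision of every value.

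Of 10106 probe sets that passed the filter on low signals, 1168 were higher in the pooled comparison (11.6% of those tested) and 1629 were lower (16.1%). Against BSN alone 925 were higher (9.15%) and 1351 lower (13.4%), and against HRG alone 1180 were higher (11.7%) and 1423 lower (14.1%). Particular to PTN were 532 higher (5.26%) and 648 lower (6.41%) probe sets, 1180 in all. Of the 2797 pooled calls, 620 passed against BSN alone, 863 against HRG alone, 134 against neither, and 83 had opposite signs against the media. The excess of lower calls depended on scaling: particular probe sets were 837 higher and 309 lower when each array was centred on its median, and 528 and 465 after quantile normalization. The same split for the pooled comparison was 1723 to 853 and 1259 to 1218, against BSN 1598 to 645 and 990 to 1003, and against HRG 1452 to 943 and 1249 to 1210. The median pooled log2 change of all kept probe sets was -0.099 as deposited and 0.063 after median centring, so a direction near that size is not interpreted. Between 778 probe sets (without BSN replicate 3) and 1654 (without PTN replicate 1) were particular with 1 array left out.

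The changes particular to PTN were mostly moderate. The median pooled fold was 1.72 for the higher probe sets and 1.75 for the lower ones, and 62 and 108 of them changed at least 2-fold against each medium. HRG and BSN did not differ past the threshold for 426 of the 532 higher and 557 of the 648 lower probe sets. That does not show equal levels in HRG and BSN, and the share over all kept probe sets was not counted. Of the higher ones, 97 stood in the order PTN, BSN, HRG, and 9 in the order PTN, HRG, BSN. Of the lower ones, 54 had HRG above BSN and 37 had HRG below BSN. On 521 of the higher and 621 of the lower probe sets no PTN array overlapped any of the other 6, against 21.1% of all kept probe sets without overlap in one direction or the other. Of all particular probe sets, 441 higher and 567 lower ones had 1 symbol, and these belonged to 978 genes. Of the 532 higher probe sets 13 were above an array's 40th percentile on PTN arrays alone, and of the 648 lower ones 53 on no PTN array. These passed the filter on low signals through 1 side of the comparison and had to differ, so their values are given without a test. Among the genes named they were Aqp2, Scd and Cenpe (higher) and Akr1b8, Dusp2, Hopx, Egfr, Igfbp3 and Nupr1 (lower), and the list counts include them. A dimmer probe set of B2m and a dimmer probe set of Slc40a1 were also among the lower ones.

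**Figure D1:**
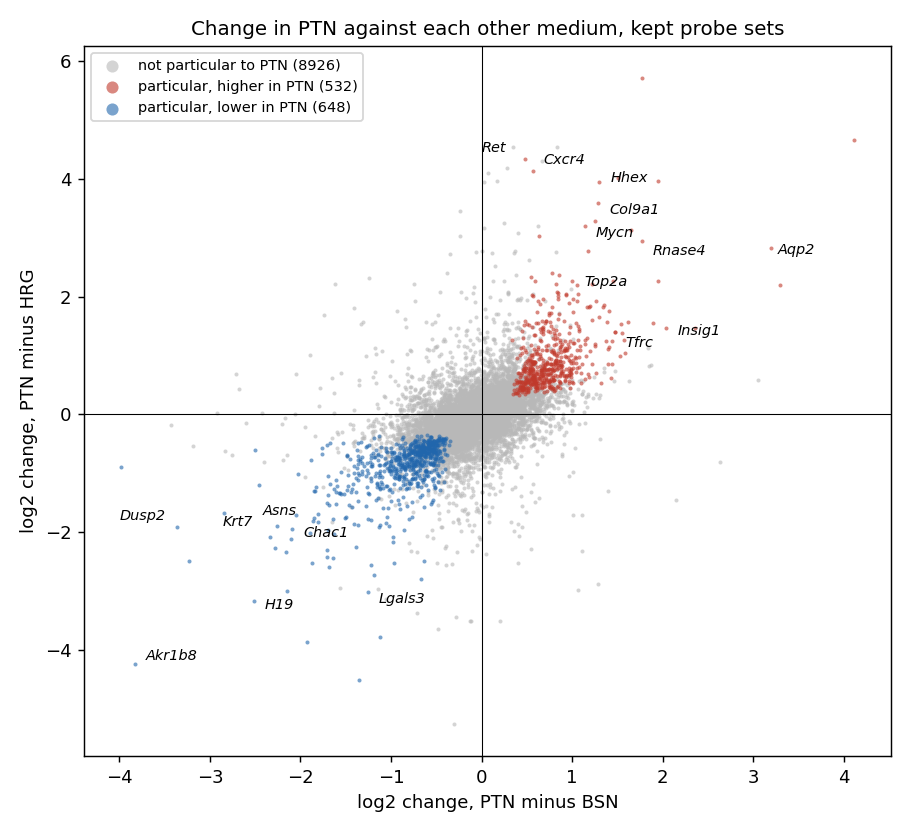
Log2 change of each kept probe set in PTN against BSN (horizontal) and against HRG (vertical). Red points are the 532 probe sets particular to PTN and higher, blue points the 648 that were lower, grey points all others; both axes share the PTN arrays, which alone spreads points along the diagonal.

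Aqp2, Insig1, Krt7 and H19 mark the PTN buds in both directions. Aqp2, the vasopressin-regulated apical water channel of collecting duct principal cells, had signals of 1685, 720 and 2189 on the PTN arrays, 158, 108 and 151 in BSN, and 219, 167 and 165 in HRG. The other 6 arrays lay below the group floor, the mean over a group's arrays of the 40th percentile signal (750 in BSN, 691 in HRG, 632 in PTN). Where a group mean is below its floor, signals are given without a fold. Aqp2 did not pass the filter on low signals when any PTN array was left out or with the filter at the 60th percentile, and the list of trunk genes then had no particular and higher member. Insig1, the endoplasmic reticulum anchor that holds SREBP processing in check and is itself an SREBP target, had signals of 22738, 19126 and 20485 in PTN, 4384, 5350 and 5382 in BSN, and 5573, 8612 and 8731 in HRG. Every PTN array was above every other array, by 4.12-fold on average against BSN and 2.77-fold against HRG (pooled log2 change 1.76 ± 0.15 SE, adjusted p = 8.0e-06). Folds are on the scale of log2 of the signal plus 16.

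Krt7, a keratin of ductal and urothelial epithelium, read 3545, 1926 and 2031 in PTN against 11229, 12252 and 13300 in BSN and 11109, 10299 and 9382 in HRG. It was 5.06-fold lower than in BSN and 4.24-fold lower than in HRG (pooled log2 change -2.21 ± 0.17 SE, adjusted p = 4.8e-06). H19, an imprinted noncoding RNA abundant in fetal tissue, read 5563, 8178 and 5232 in PTN, 33558, 33997 and 39086 in BSN, and 70074, 51637 and 48879 in HRG. No PTN array came near the others, at 5.71-fold below BSN and 9.04-fold below HRG (pooled log2 change -2.84 ± 0.16 SE, adjusted p = 4.0e-07). In these bulk samples, fewer cells of a type and less RNA per cell cannot be told apart.

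**Figure D2:**
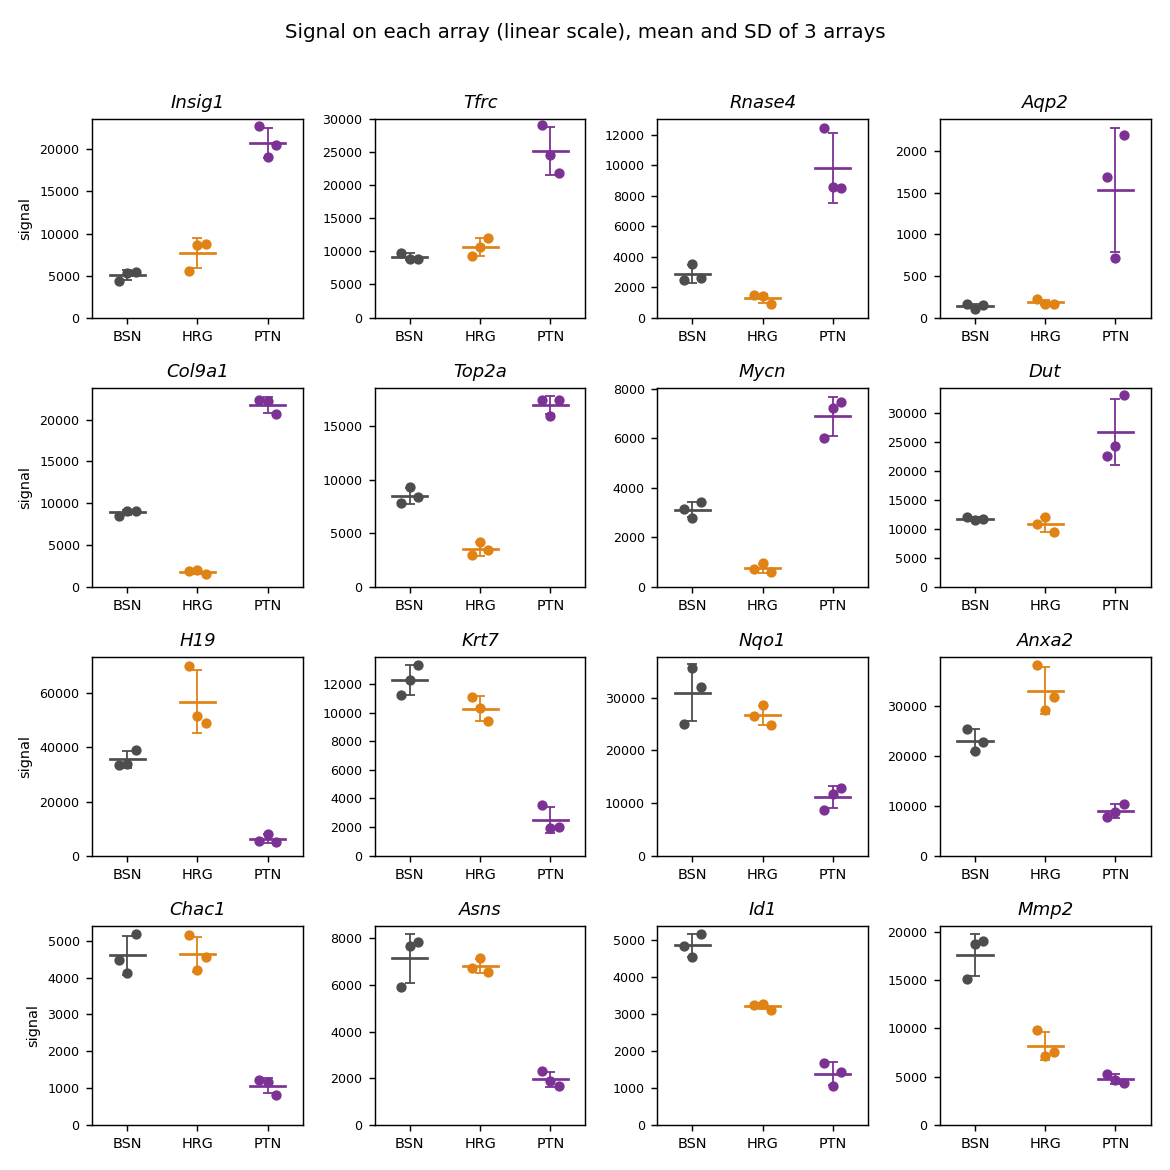
Signal on a linear axis (in the deposited units) of 16 genes on the 3 BSN, 3 HRG and 3 PTN arrays; points are arrays, lines the mean and bars the SD. For the 8 genes in the upper rows, from Insig1 to Dut, every PTN point lies above every other point, and for the 8 in the lower rows, from H19 to Mmp2, below.

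Gene lists were read against the background shares of 5.26% higher and 6.41% lower. Those shares are over probe sets, whereas list counts take each gene's brightest, so the units differ. Among the brighter probe sets kept by the 60th percentile filter 1097 of 6916 were particular (538 higher, 559 lower), against 1180 of 10106 under the main filter. For pooled counts the shares over all kept probe sets were 11.6% higher and 16.1% lower. They were 9.15% and 13.4% against BSN alone, and 11.7% and 14.1% against HRG alone. Mitosis genes (13 of 36 tested particular and higher), DNA replication genes (8 of 30), Nrf2 targets (10 of 25 lower) and annexins, S100 proteins and galectins (8 of 18 lower) had the largest counts. None of those 4 lists had a particular member in the opposite direction, and each kept that under quantile normalization and median centring.

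**Figure D3:**
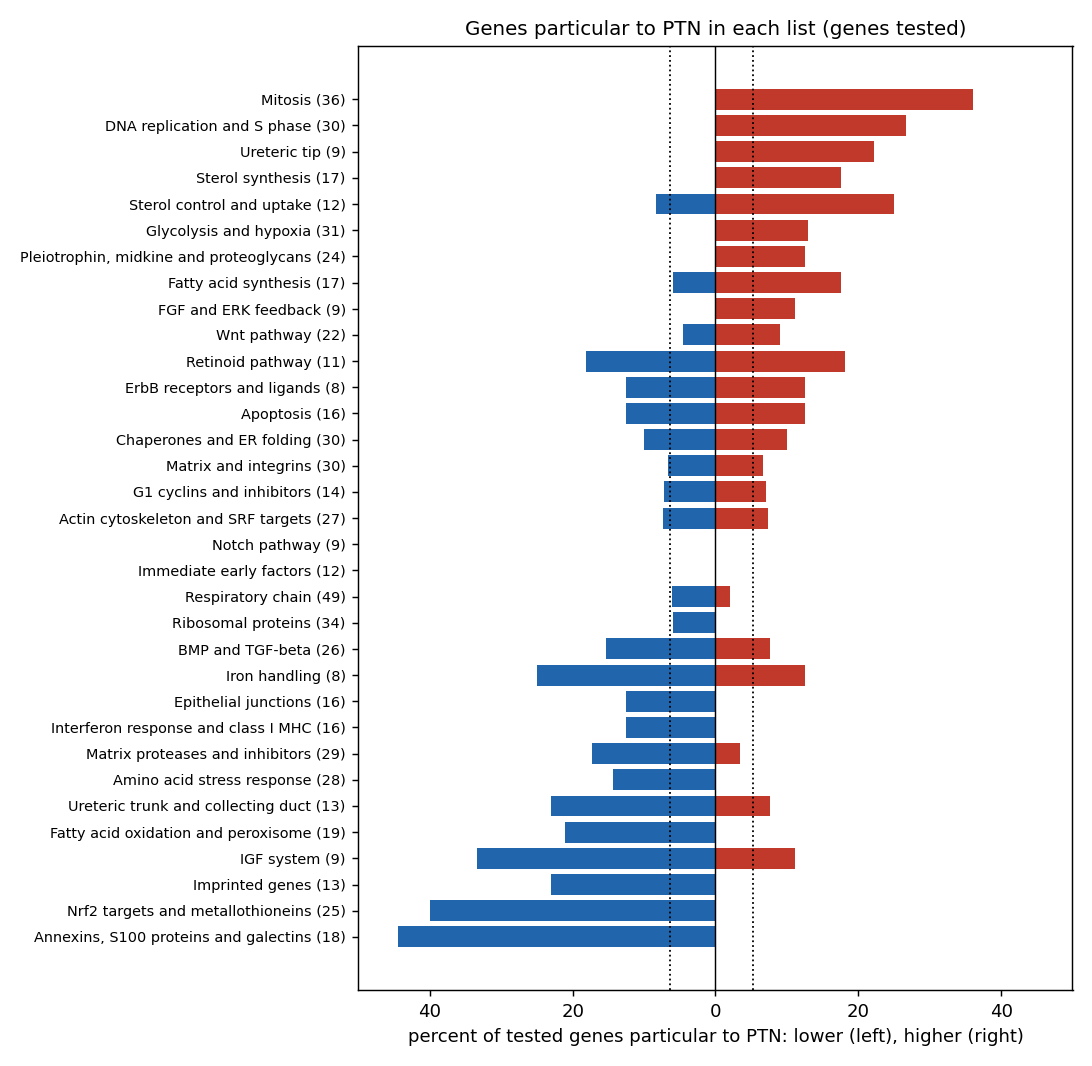
Percent of tested genes particular to PTN, higher (red, to the right) or lower (blue, to the left), in each pathway list with 8 or more genes tested. The number tested is in parentheses and dotted lines mark the shares over all kept probe sets. Smaller lists, such as the keratins (3 of 4 lower), and the cell type lists are not drawn. The mitosis list reaches 36.1% higher, and the annexin list 44.4% lower, with the Nrf2 list (10 of 25) next to it.

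The ureteric trunk and collecting duct list split around Aqp2. Of 13 tested genes Aqp2 alone was particular and higher, 3 were particular and lower (Krt7, Hsd11b2 and Sgk1), and 7 passed as lower in the pooled comparison (list median pooled log2 change -0.58). Against HRG 8 were lower and 2 higher, and against BSN 3 were lower and 2 higher. Hsd11b2, which inactivates glucocorticoid in aldosterone-sensitive cells, read 1979, 1357 and 1509 in PTN against 4156, 3657 and 5865 in BSN and 3585, 2735 and 3616 in HRG, and fell 2.78-fold and 2.05-fold (adjusted p = 0.00037 and 0.0022). Sgk1, the kinase that raises sodium channel abundance in principal cells, was at 1395 ± 85.9 (SD, n = 3, as for every ± without SE below) in PTN, 2012 ± 343 in BSN and 2186 ± 217 in HRG. Aqp3, the basolateral water channel, did not go with Aqp2: it was at 1348 ± 540 in PTN, 524 ± 101 in BSN and 9668 ± 1570 in HRG, above BSN and below HRG. Aqp4, another basolateral channel, read 4769 ± 856 against a BSN level of 4656 ± 1513 (adjusted p = 0.83) and was 3.56-fold lower than in HRG.

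Simple epithelial keratins were lower in PTN, whereas E-cadherin did not pass. All 4 tested keratins passed as lower in the pooled comparison and 3 were particular: Krt7, Krt18 and Krt8. Krt18 read 21372, 14439 and 13070 in PTN, 27486, 28643 and 29784 in BSN, and 32195, 27717 and 30781 in HRG, a 1.8-fold and a 1.89-fold fall (adjusted p = 0.0031 and 0.0012). Its partner Krt8 was at 15014 ± 2926 in PTN, 19710 ± 675 in BSN and 23543 ± 353 in HRG, and its call was lost in 11 of 18 alternative settings, median centring among them. Krt19 was below HRG by 4.84-fold but missed the threshold against BSN (2181 ± 96.3 against 2925 ± 660, adjusted p = 0.083). Cdh16, the kidney cadherin, fell from 7780 ± 1237 in BSN and 7618 ± 906 in HRG to 4618 ± 166. Cdh1, the epithelial cadherin, was at 12040 ± 3133 in PTN, 11468 ± 2900 in BSN and 15372 ± 4124 in HRG (pooled adjusted p = 0.65). Of 16 junction genes F11r, a tight junction adhesion molecule, and Dsc2, a desmocollin, were particular and lower, by 1.45-fold and 1.43-fold against BSN. The F11r call was lost under median centring alone, and the Dsc2 call in 11 of 18 settings.

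In the list of sterol control and uptake genes 3 of 12 tested were particular and higher (Insig1, Lrp8 and Mylip) and 1 was lower (Scap). Lrp8, a receptor of the LDL receptor family, was at 8460 ± 1621 in PTN, 4297 ± 657 in BSN and 3854 ± 973 in HRG. Mylip, the ubiquitin ligase that degrades LDL receptors, was at 8312 ± 1124, 4482 ± 363 and 4625 ± 536 in the same order. Scap, which escorts SREBP to the Golgi, fell to 2139 ± 326 from 3550 ± 234 in BSN and 3849 ± 388 in HRG, a 1.66-fold and a 1.8-fold change. The transcription factors Srebf1 and Srebf2 gave no pooled call (adjusted p = 0.59 on the brighter Srebf1 probe set and 0.83 for Srebf2).

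Of 17 fatty acid synthesis genes 3 were particular and higher (Scd2, Scd and Elovl5) and 1 lower (Me1), and in the pooled comparison 8 passed as higher and 2 as lower. Against BSN 8 were higher and 1 lower, and against HRG 4 were higher and 3 lower. Scd2, a stearoyl-CoA desaturase, read 49073, 44797 and 50670 in PTN, 21920, 26008 and 22668 in BSN, and 21699, 26999 and 24794 in HRG. Its 3 PTN arrays were about level with each other and 2.05-fold above BSN and 1.97-fold above HRG (adjusted p = 0.00015 and 7.8e-05). This was the brightest of its 3 kept probe sets, and the other 2 were not particular. Scd, a second desaturase, was at 1551 ± 649 in PTN and below the floor in BSN (482 ± 133) and HRG (488 ± 95.6), and like Aqp2 it had no value when any PTN array was left out or with the filter at the 60th percentile. The list count was 2 higher at that filter and without PTN replicate 2 or 3. Of the desaturases of polyunsaturated fatty acids Fads1 was not particular (adjusted p = 0.072 against BSN) and Fads2 gave no call (pooled adjusted p = 0.3). Elovl5, which lengthens polyunsaturated fatty acids, was at 37871 ± 4152, against 20629 ± 820 and 16041 ± 1403. Fasn, the fatty acid synthase, was not called (14861 ± 1020 in PTN and 14800 ± 928 in HRG), and Me1, the malic enzyme that supplies NADPH, was lower in PTN at 3883 ± 1326 against 7529 ± 835 and 6900 ± 1450, a call lost under median centring and without HRG replicate 2 or 3.

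Among 17 sterol synthesis genes 7 passed as higher in the pooled comparison and none as lower (median pooled log2 change 0.32), but only Fdps, Sqle and Acat2 were particular. Against BSN 9 were higher and none lower, whereas against HRG 3 were higher and 2 lower. Fdps, farnesyl diphosphate synthase, read 34664, 22504 and 21831 in PTN against 10483, 11684 and 11869 in BSN and 16728, 14209 and 18835 in HRG. Its PTN arrays did not overlap the others, and its call against HRG (1.56-fold) was lost without HRG replicate 2 (adjusted p = 0.0737). Acat2, which makes acetoacetyl-CoA, was 1.78-fold above BSN and 1.71-fold above HRG. Sqle, squalene epoxidase, was 1.37-fold above HRG with overlapping arrays, and its call was lost in 10 of 18 settings. With 1 array left out, 1 (without HRG replicate 2) to 4 (without HRG replicate 3) members of the list were particular, and 2 without any BSN array, HRG replicate 1, or PTN replicate 2 or 3. The classic sterol element, searched as TCACNCCAC on both strands of the promoter window described below, was in none of the promoters matched to these lists and in 1.13% of all promoters. That says only that these letters are not in the window.

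Fatty acid oxidation genes went the other way, mostly against HRG. Of 19 tested, 10 passed as lower in the pooled comparison and none as higher (list median -0.44). Against HRG 12 were lower and none higher, and against BSN 4 were lower and 1 higher. Particular and lower were 4: Cpt1a, Acadl, Cat and Ppargc1a. Ppargc1a, the coactivator of mitochondrial biogenesis, was at 1211 ± 152 in PTN, 2350 ± 376 in BSN and 2378 ± 242 in HRG. Cpt1a, which commits fatty acids to mitochondria, read 5400, 4840 and 4905 in PTN against 7610 to 10595 in BSN and 7726 to 10414 in HRG, 1.77-fold lower than each, and its second kept probe set was not particular. Acadl, a long-chain acyl-CoA dehydrogenase, fell 1.74-fold and 3.45-fold. Cat is the peroxisomal catalase. Under median centring 2 of the 4 calls remained in number, and the Acadl call was among those lost.

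Cell division genes formed the largest group particular to PTN. Of 36 mitosis genes tested 31 passed as higher in the pooled comparison and none as lower (list median pooled log2 change 0.72). Against HRG 33 were higher and against BSN 13, so most pooled calls did not pass against BSN. Particular were 13: Top2a, Ccnb1, Aurkb, Bub1b, Cenpe, Ube2c, Tacc3, Cks1b, Espl1, Lmnb1, Dlgap5, Melk and Spc25. All but Top2a, Dlgap5 and Spc25 are named here to complete the count, after their values were seen, and were not refitted one by one. Top2a, the topoisomerase that untangles replicated chromosomes, read 17458, 15962 and 17447 in PTN, 7765, 9295 and 8383 in BSN, and 2926, 4214 and 3439 in HRG. The groups stood in that order without overlap, PTN 2.00-fold above BSN (adjusted p = 0.00066) and 4.84-fold above HRG (adjusted p = 4.9e-07).

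Spc25, a kinetochore subunit, read 9284, 9876 and 8659 in PTN against 4734, 4793 and 5879 in BSN and 2704, 2982 and 2759 in HRG. Dlgap5, a spindle protein, read 7332, 6698 and 7459 against 3132, 3960 and 3320 and 2239, 2470 and 2611. Both genes kept the order PTN, BSN, HRG on every array. Ccnb1, the mitotic cyclin, was particular on 2 probe sets, the brighter at 14009 ± 1377 in PTN, 8993 ± 1198 in BSN and 7030 ± 1099 in HRG. Ube2c, a ubiquitin-conjugating enzyme of mitotic exit, was at 5234 ± 1733, 2693 ± 241 and 2394 ± 256, and its PTN replicate 1 (7224) stood above the other 2 PTN arrays. Cenpe, a kinetochore motor, lay below the floor in BSN and HRG and was at 965 ± 280 in PTN. With 1 array left out, 8 (without BSN replicate 3) to 15 (without PTN replicate 1) of the mitosis genes were particular, and under median centring 22.

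DNA replication genes rose with them. Of 30 tested, 17 passed as higher in the pooled comparison and none as lower (list median 0.54). Against HRG 21 were higher and against BSN 8. Particular were 8: Mcm5, Mcm6, Rfc4, Pola1, Gins1, Rpa2, Ccne2 and Dut. Gins1, a subunit of the replicative helicase, read 4272, 3412 and 2825 in PTN, 1125, 1236 and 1163 in BSN, and 1261, 1296 and 993 in HRG, with close means in the other media and PTN 2.92-fold and 2.91-fold above them. Dut, which keeps uracil out of DNA, read 22576, 24389 and 33175 against 12121, 11511 and 11632 and 10795, 12088 and 9519 and did not overlap them. Rfc4, of the clamp loader, was graded instead, at 9087 ± 837 in PTN, 5549 ± 739 in BSN and 3012 ± 60.7 in HRG. Pcna, the sliding clamp, was not particular (34424 ± 1955, 33146 ± 3703 and 26785 ± 538). The count was 3 without BSN replicate 3 and 5 without PTN replicate 3, 6 to 9 without any other single array, and 13 under median centring.

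Of 14 G1 genes tested 5 passed as higher and 2 as lower in the pooled comparison, and 1 was particular in each direction. Cdkn1b, an inhibitor of cyclin-dependent kinases known as p27, was higher (5807 ± 715 in PTN, 4158 ± 237 in BSN, 4258 ± 222 in HRG), and Cdkn1a, the inhibitor p21, was lower (3031 ± 267, 7184 ± 349 and 4331 ± 338), a call lost under median centring and without HRG replicate 2. The list had 5 higher and 0 lower under median centring and 3 and 1 after quantile normalization, and no higher member without any single array other than PTN replicate 1. Cdkn1c, the imprinted inhibitor p57, was 6.18-fold above HRG but at 18422 ± 4700 against 12794 ± 2842 in BSN (adjusted p = 0.13), and it was particular under median centring (0.0311) and the replicate block (0.02). Ccnd1, cyclin D1, was 2.91-fold above HRG on its brightest probe set but at 7791 ± 802 against 6383 ± 519 in BSN (adjusted p = 0.14), and its 3 probe sets disagreed on the comparison with BSN.

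Promoters of 4 mitosis genes are shown because members of the list moved together and their known control runs through a pair of short elements, the CHR element and the CCAAT box. The 4 were chosen, among the 7 particular genes with the CHR letters, to show both elements. Sequences are from the RefSeq promoter table of the rat build GRCr8, a window from 250 bases before to 50 after each gene's start, and run 5′ to 3′ on the gene's strand from 130 bases before the start to 9 after. Capitals mark the CHR letters TTTGAA and the CCAAT letters on either strand, so TTCAAA and ATTGG are matches on the other strand. The windows are Top2a at chr10:84473084-84473223 (minus strand), Tacc3, a spindle protein, at chr14:81289689-81289828 (minus), Spc25 at chr3:74396709-74396848 (minus) and Espl1, the separase that cuts cohesin, at chr7:135302586-135302725 (plus).
Top2a: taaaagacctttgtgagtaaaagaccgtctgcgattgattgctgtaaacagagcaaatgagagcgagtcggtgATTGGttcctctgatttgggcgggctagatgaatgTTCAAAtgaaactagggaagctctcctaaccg
Tacc3: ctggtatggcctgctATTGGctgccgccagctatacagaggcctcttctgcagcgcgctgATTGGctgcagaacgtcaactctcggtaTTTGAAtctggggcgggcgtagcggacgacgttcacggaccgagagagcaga
Spc25: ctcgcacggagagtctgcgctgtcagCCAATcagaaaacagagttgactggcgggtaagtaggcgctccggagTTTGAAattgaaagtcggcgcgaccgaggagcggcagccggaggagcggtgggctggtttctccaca
Espl1: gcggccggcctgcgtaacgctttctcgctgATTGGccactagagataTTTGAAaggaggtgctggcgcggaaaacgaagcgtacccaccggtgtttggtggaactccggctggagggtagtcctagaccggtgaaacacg

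In these 4 promoters the CHR letters lay 22 (Top2a), 42 (Tacc3), 57 (Spc25) and 83 (Espl1) bases before the start, each downstream of a CCAAT box. That layout was not general: Lmnb1 had the CHR letters at -110 and CCAAT at -57, and Bub1b had the CHR letters and no CCAAT. Over the whole window the CHR letters were in 7 of 11 particular mitosis genes with a promoter in the table, in 21 of 33 mitosis genes tested, and in 18.1% of all 27457 promoters. CCAAT was in 9 of 11, in 28 of 33 and in 37.7%. Mitosis genes that were not particular to PTN thus held the elements as well. Cenpe, counted among the particular genes with CCAAT, passed the filter on low signals through PTN arrays alone. Cenpe had to differ, so its match adds no support. Of the replication genes none of 7 particular members held the CHR letters and 5 held CCAAT. A match is a description of the letters and not of binding.

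Tip genes were high in PTN, but their distance from BSN was small. Of 9 tip genes tested, 5 passed as higher in the pooled comparison, none as lower, and Ret and Cxcr4 were particular. Ret, the GDNF receptor of branching tips, read 19681, 18578 and 18010 in PTN, 11483, 15204 and 13848 in BSN, and 1112, 851 and 790 in HRG. Its PTN arrays lay above all BSN arrays, by 1.4-fold, and this call (adjusted p = 0.042) was lost in 10 of 18 settings, among them quantile normalization (0.151) and the replicate block (0.0519); its second probe set gave 2269 ± 676 and 2217 ± 263 in PTN and BSN. Cxcr4, the receptor of the chemokine CXCL12, was at 12304 ± 2230 in PTN, 8227 ± 256 in BSN and below the floor in HRG (677 ± 77.2). Its call was lost under quantile normalization and without BSN replicate 1 or 3 or PTN replicate 3, and its other 2 probe sets were not particular. The list thus had no particular member in any of those 4 settings. Gfra1, the co-receptor of Ret, was not particular (5771 ± 584 in PTN, 5916 ± 513 in BSN). Cxcl12, the ligand of Cxcr4 and a stromal marker, was itself higher in PTN at 1875 ± 261, against 815 ± 144 in BSN and 522 ± 125 in HRG, which is below the floor.

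Mycn, a proto-oncogene of growing tips, was the one FGF and ERK responsive gene particular to PTN among 9 tested. It read 6002, 7216 and 7487 in PTN, 3146, 2792 and 3423 in BSN, and 710, 943 and 586 in HRG, and the groups did not overlap (2.2-fold above BSN, adjusted p = 0.00087; 9.2-fold above HRG, adjusted p = 1.3e-07). The feedback inhibitors Spry1 and Spry2 were above HRG but not called against BSN (adjusted p = 0.32 and 0.083). Of 12 immediate early genes none was particular, and 3 passed as lower in the pooled comparison.

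Among genes for pleiotrophin, midkine and their binding partners, the culture's own Ptn transcript did not separate PTN from BSN. Ptn read 3814, 4387 and 3940 in PTN, 4719, 4094 and 2827 in BSN, and 1434, 897 and 764 in HRG (adjusted p = 0.81 against BSN and 4.5e-05 against HRG). Midkine, Mdk, was at 16838 ± 2170, 19009 ± 2345 and 4271 ± 508. Particular to PTN were 3 of 24 genes, all higher. Sulf2, which trims sulfate groups from heparan sulfate, was at 7799 ± 710 in PTN, 5428 ± 671 in BSN and 2702 ± 134 in HRG, and its call was lost without BSN replicate 1. Gpc2 and Gpc6, glypicans that carry heparan sulfate chains, were 1.36-fold and 1.27-fold above BSN. Those calls were lost in 5 and 12 of 18 settings, and the list had no particular member without BSN replicate 1 and 1 without BSN replicate 2, BSN replicate 3 or PTN replicate 3. Without PTN replicate 1 it had 3 higher and 2 lower. The syndecans differed: Sdc4 was 1.96-fold above BSN with adjusted p = 0.1 against HRG, and Sdc1 gave no call (adjusted p = 0.75 pooled). Ptprz1, a receptor phosphatase bound by pleiotrophin, was at 1699 ± 468 in PTN, 2194 ± 45.2 in BSN and 1523 ± 123 in HRG (pooled adjusted p = 0.54).

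Of 13 imprinted genes tested 3 passed as higher and 3 as lower in the pooled comparison. H19 and its imprinted neighbour Igf2 were particular and lower, and Igf2r was particular with probe sets that disagreed. Igf2, the fetal insulin-like growth factor, read 2518, 3946 and 3192 in PTN, 8793, 5892 and 6516 in BSN, and 13071, 12257 and 10780 in HRG, a fall of 2.19-fold and 3.78-fold without overlap (adjusted p = 0.0013 and 1.3e-05). Igf2r, which clears Igf2, gave opposite results on 2 probe sets: the brighter on average fell from 6954 ± 168 in BSN and 6029 ± 469 in HRG to 3495 ± 517, and the other rose from 3953 ± 129 and 5232 ± 511 to 6910 ± 349. It was the one gene with particular probe sets in both directions, so no direction is given for it, although counts by the brightest probe set hold it as lower. The higher members were Cdkn1c, Grb10, an adaptor that restrains insulin receptor signalling (26981 ± 675 in PTN, 19769 ± 4128 in BSN, 10226 ± 1471 in HRG, adjusted p = 0.051 against BSN), and Mest (27612 ± 5364, 22769 ± 4197 and 10309 ± 2408, adjusted p = 0.34 against BSN). The list had 2 particular higher members under median centring, the replicate block or without BSN replicate 1, and 1 without BSN replicate 2 or 3. Of 9 genes of the IGF system Irs2, an adaptor of the insulin and IGF receptors, was particular and higher (2437 ± 534, 1529 ± 211 and 1460 ± 132), a call lost without BSN replicate 2 or PTN replicate 3. Igfbp3, an IGF carrier, lay below the floor in PTN (347 ± 192, against 1010 ± 361 in BSN and 760 ± 126 in HRG).

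Genes of the amino acid and integrated stress response that were particular to PTN were all lower, 4 of 28 tested: Chac1, Asns, Slc7a3 and Nupr1. Chac1, which degrades glutathione and is induced by ATF4, read 1206, 1168 and 823 in PTN, 4489, 4140 and 5186 in BSN, and 5148, 4204 and 4562 in HRG. The BSN and HRG arrays overlapped each other, and PTN was 4.31-fold and 4.35-fold below them (pooled log2 change -2.11 ± 0.14 SE, adjusted p = 1.5e-06). Asns, asparagine synthetase, read 2316, 1876 and 1666 against 5917, 7669 and 7826 and 6708, 7138 and 6552, 3.64-fold and 3.49-fold lower in PTN, again with overlap between the other media. Slc7a3, a cationic amino acid transporter, fell to 1087 ± 54.1 from 2840 ± 384 in BSN and 1533 ± 189 in HRG, a call lost in 8 of 18 settings. Nupr1, a stress-induced chromatin protein, was below the floor in PTN and BSN (391 ± 84.3 and 723 ± 98.5). Atf4 itself gave no call (7302 ± 1319, 7948 ± 810 and 8904 ± 1485, pooled adjusted p = 0.29), and Psat1, of serine synthesis, was higher in the pooled comparison. The count of lower members was 2 without HRG replicate 1 or PTN replicate 3, 3 to 4 without any other single array, and 2 after quantile normalization.

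The promoters of Chac1 and Nupr1 are shown because they hold the amino acid response letters TGATGNAA, the element bound by ATF4 complexes, marked in capitals as TTGCATCA on the printed strand. The stretches run from 180 to 31 bases before the gene's start, at chr3:126795951-126796100 (plus strand) for Chac1 and chr1:190645932-190646081 (minus strand) for Nupr1, in GRCr8.
Chac1: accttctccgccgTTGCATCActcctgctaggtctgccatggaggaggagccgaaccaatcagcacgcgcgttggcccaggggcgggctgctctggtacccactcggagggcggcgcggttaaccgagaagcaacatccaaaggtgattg
Nupr1: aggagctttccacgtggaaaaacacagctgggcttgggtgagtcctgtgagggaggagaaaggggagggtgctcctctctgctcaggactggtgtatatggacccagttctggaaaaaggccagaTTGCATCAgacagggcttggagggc
These letters were in 2 of the 3 particular members with a promoter in the table, in 6 of 24 members tested and in 3.82% of all promoters, searched on both strands. Of the particular members with a match, Nupr1 passed the filter on low signals through no PTN array. Nupr1 had to differ, so its match adds no support. Asns had no match in its window.

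Many genes in the list of Nrf2 targets and metallothioneins were lower in PTN than in either other medium. The list also holds Nfe2l2, which encodes Nrf2, and Keap1, and neither gave a pooled call (pooled log2 change -0.19 and -0.27). Of 25 tested, 15 passed as lower in the pooled comparison and 1, Mt2A, as higher, and 10 were particular, all lower: Nqo1, Hmox1, Gclc, Srxn1, Gsta1, Gsta3, Gsta4, Gstp1, Abcc1 and Sqstm1 (list median pooled log2 change -0.54). Nqo1, a quinone reductase, read 8774, 11786 and 12782 in PTN, 25122, 35742 and 32124 in BSN, and 26491, 28590 and 24898 in HRG, 2.79-fold and 2.42-fold lower without overlap (adjusted p = 0.0001 and 0.00011). Gsta4, a glutathione transferase that clears lipid aldehydes, read 6532, 5158 and 5372 against 15188, 19901 and 20361 and 13205, 14353 and 16529. For both genes BSN and HRG arrays overlapped each other and no PTN array overlapped either. Gstp1, another transferase, was 4.08-fold below BSN and 2.01-fold below HRG.

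Gsta1 was at 2868 ± 851 in PTN, 8514 ± 1546 in BSN and 6507 ± 1107 in HRG, and Gsta3 at 2900 ± 364, 6389 ± 1214 and 6990 ± 117. Gclc, the rate-limiting enzyme of glutathione synthesis, was at 2335 ± 431, 3973 ± 395 and 3586 ± 482. Hmox1, heme oxygenase, was at 1298 ± 76.3, 2508 ± 250 and 2171 ± 349. Srxn1, which repairs peroxiredoxins, was uneven in PTN, with 911 on replicate 1 and 165 and 177 on the others, so the PTN mean of 418 lies below the floor and replicate 1 overlaps HRG. Sqstm1, an autophagy receptor, was particular on 1 of its 3 probe sets. The count of lower members was 7 (without PTN replicate 3) to 11 (without PTN replicate 1) with 1 array left out, and 10 under quantile normalization, median centring and the replicate block. The antioxidant letters TGANNNNGC, common by their length, were in 5 of 9 matched particular members, 11 of 23 tested and 40.4% of all promoters.

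The genes named for the largest falls, chosen by that direction, included Akr1b8, Cyp1a1 and Mvp. Akr1b8, an aldo-keto reductase that reduces lipid aldehydes, read 103, 117 and 149 in PTN, 1410, 2743 and 1880 in BSN, and 3387, 1973 and 2583 in HRG, so it was below the floor in PTN and above it on every other array. Cyp1a1, a cytochrome P450 induced by the aryl hydrocarbon receptor, read 1139, 1025 and 808 against 1998, 2934 and 2103 and 5317, 7095 and 5356, a fall of 2.33-fold and 5.9-fold. Mvp, the major vault protein, was at 672 ± 175, 2180 ± 192 and 3324 ± 391.

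Annexins, S100 proteins and galectins were lower in PTN, 14 of them against HRG and 8 against BSN. Of 18 tested, 14 passed as lower in the pooled comparison, none as higher, and 8 were particular: Anxa2, Anxa3, Anxa5, S100a6, S100a10, S100a11, Lgals1 and Lgals3 (list median -0.92). Anxa2, a calcium-dependent membrane binder, read 7688, 8856 and 10336 in PTN, 25480, 21050 and 22729 in BSN, and 38320, 29238 and 31755 in HRG, 2.58-fold and 3.69-fold lower. Its binding partner S100a10 was at 2270 ± 290, 3676 ± 207 and 5354 ± 1327. Both were ordered PTN, BSN, HRG. Lgals3, galectin 3 of mature collecting duct cells, read 1039, 1682 and 1643 against 3551, 3362 and 3357 and 12424, 10759 and 11876, a fall of 2.39-fold and 8.13-fold. Anxa5, which binds phosphatidylserine, ran in another order, at 8476 ± 2291 in PTN, 20632 ± 304 in BSN and 16114 ± 1262 in HRG. S100a6 was 1.55-fold below BSN, a call lost in 7 of 18 settings. Between 7 and 10 (without PTN replicate 1) members were particular with 1 array left out.

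**Figure D4:**
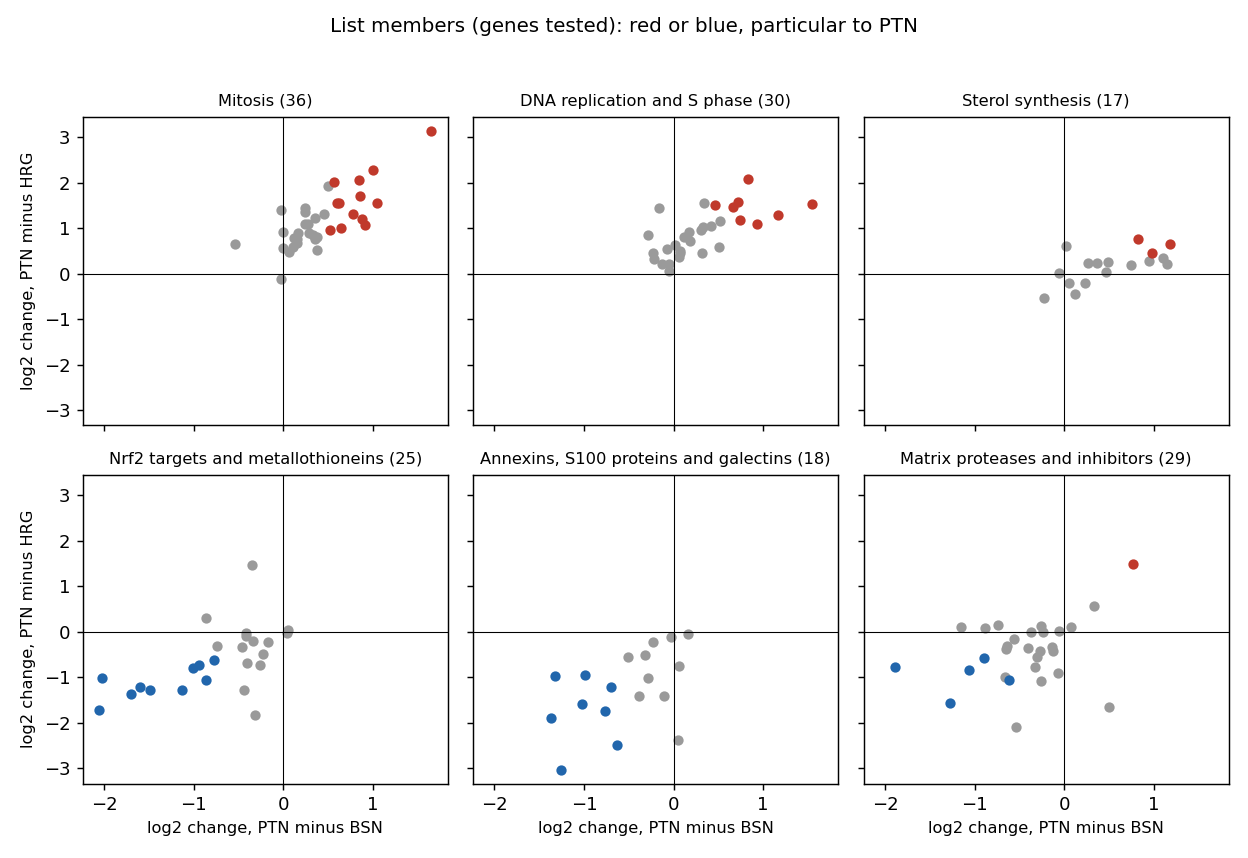
Log2 change of each tested member of 6 lists in PTN against BSN (horizontal) and HRG (vertical), with the number tested in parentheses; red and blue points are particular to PTN, grey points are not. The 13 red mitosis genes and 8 red replication genes lie to the upper right, and the 10 blue Nrf2 targets and 8 blue annexin, S100 and galectin genes to the lower left.

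Genes of matrix turnover were lower in PTN. Of 29 proteases and inhibitors tested 16 passed as lower in the pooled comparison and 1 as higher, and Mmp2, Mmp24, Timp1, Timp3 and Plat were particular and lower. Mmp2, gelatinase A, read 5320, 4634 and 4329 in PTN, 15149, 18747 and 19100 in BSN, and 9868, 7104 and 7587 in HRG, 3.7-fold and 1.71-fold lower on the brighter of its 2 probe sets, and the other was not particular. Timp3, a matrix-bound inhibitor of metalloproteinases, was at 881 ± 133, 2178 ± 501 and 2619 ± 283, also on 1 of 2 probe sets. Protease and inhibitor thus fell side by side. Plat, tissue plasminogen activator, was at 689 ± 255, 1392 ± 275 and 1176 ± 72.6, and Timp1 at 707 ± 115, 1321 ± 100 and 1060 ± 220. Serpine2, an inhibitor of thrombin-like proteases, was the one member particular and higher, 1.7-fold above BSN, a call lost without BSN replicate 1 or 2 or PTN replicate 3. The 5 lower calls fell to 2 or 3 without any single array other than PTN replicate 1 (6), and to 3 and 2 under quantile normalization and median centring, Mmp24 among those lost.

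Of 30 matrix and integrin genes 2 were particular in each direction, near the background. Col9a1, a chain of the cartilage collagen IX, was the largest of them: it read 22412, 22285 and 20676 in PTN, 8511, 9097 and 9076 in BSN, and 1873, 2053 and 1512 in HRG. The groups were fully separate, with PTN 2.45-fold above BSN and 12-fold above HRG. Lama1, a laminin chain of early basement membranes, was 1.77-fold above BSN, a call lost without BSN replicate 1 or 2. Sparc, a collagen-binding matrix protein, and Itga3, a laminin receptor, were lower, and each call was lost without PTN replicate 3, that of Sparc also without BSN replicate 3, and that of Itga3 also without HRG replicate 1 or 3 or PTN replicate 2 and under both rescalings.

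Members of 4 signalling pathways were particular to PTN in small numbers and in both directions. Of 26 BMP and TGF-beta genes 4 were lower and 2 higher. Id1, a BMP target that holds cells from differentiating, read 1668, 1051 and 1421 in PTN, 4856, 4547 and 5181 in BSN, and 3255, 3277 and 3119 in HRG, 3.55-fold and 2.36-fold lower (adjusted p = 1.9e-05 and 0.00013). Id2 was at 2107 ± 611, 3232 ± 613 and 4418 ± 658 with overlapping arrays. Bmpr2, a BMP receptor, and Grem1, a BMP antagonist, were lower with calls lost in 9 and 7 of 18 settings. Smad1, a BMP effector, and Ltbp1, which stores latent TGF-beta, were higher and each lost its call in 2 settings. The 4 lower calls were 1 after quantile normalization, median centring, with no filter or without PTN replicate 2, and 2 without any BSN array or PTN replicate 3.

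Of 22 Wnt genes Lgr5, an R-spondin receptor, read 3498, 2120 and 1588 in PTN, 1178, 949 and 692 in BSN and 691, 924 and 569 in HRG. All PTN arrays were higher, 2.45-fold and 3.14-fold on average, with a wide spread among them. Fzd6, a Wnt receptor, was at 12336 ± 3218, 6844 ± 684 and 6437 ± 1425, and Fzd4 was lower at 2868 ± 324, 4443 ± 456 and 4262 ± 28.1. Among 8 ErbB genes Lrig1, an inhibitor of ErbB receptors, read 4957, 7005 and 6559 against 1670, 2648 and 2748 and 1585, 2073 and 1732. Egfr was below the floor in PTN (382 ± 111, against 924 ± 106 in BSN and 904 ± 149 in HRG). For neither gene did HRG, the group given an ErbB ligand by its label, differ from BSN past the threshold (adjusted p = 0.27 and 0.94). Of 11 retinoid genes Rarb and Rdh10 were higher, 1.45-fold and 1.33-fold above BSN, with calls lost in 3 and 5 settings, and Crabp2 and Aldh1a1, a retinoic acid carrier and a retinal dehydrogenase, were lower. Crabp2 was at 3181 ± 249, 5442 ± 629 and 8931 ± 998.

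An iron import gene, Tfrc, and an iron export gene, Slc40a1, moved in opposite directions. Tfrc, the transferrin receptor, read 29004, 24584 and 21856 in PTN, 9796, 8852 and 8884 in BSN, and 9272, 10589 and 12012 in HRG, 2.72-fold and 2.36-fold higher (adjusted p = 3.8e-05 and 4.3e-05). Its second, dim probe set was called against HRG and missed the threshold against BSN (adjusted p = 0.063). Slc40a1, the iron exporter ferroportin, read 1943, 1967 and 2340 against 4713, 4459 and 4482 and 8618, 7111 and 7429. All 3 of its probe sets were particular and lower. Another of the 3 was above the 40th percentile on no PTN array and had to differ, so it adds no support. Together with Hmox1 these were the 3 particular genes of 8 iron genes tested.

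Glycolysis and hypoxia genes that were particular were all higher, 4 of 31: Tfrc, P4ha1, Ldha and Eno1. P4ha1, a collagen prolyl hydroxylase, read 5593, 4127 and 3352 in PTN, 1526, 1529 and 1805 in BSN, and 1202, 1697 and 1404 in HRG, 2.62-fold and 2.98-fold higher. Ldha, lactate dehydrogenase A, was at 28711 ± 6832, 14276 ± 1733 and 18230 ± 1896. For both, PTN replicate 1 was the highest array. Eno1, enolase, was 1.68-fold above BSN, a call lost in 3 settings.

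Chaperones split 3 to 3 of 30. Creld2, a folding factor of the endoplasmic reticulum, Pdia4, a disulfide isomerase, and Cct3, a subunit of the chaperonin ring, were higher. Hsp90ab1, the constitutive HSP90, was lower at 11274 ± 220, 25629 ± 4306 and 17183 ± 1181 on 1 of 2 probe sets. Dnajb9 and Dnajb1, J-domain co-chaperones of HSP70 family proteins, were also lower, and the Dnajb1 call was lost under median centring. Of 49 respiratory chain genes 1 was higher and 3 lower, and of 34 ribosomal protein genes 2 were lower, both near the background. With 1 array left out the lower ribosomal count was 1 to 8 and the lower respiratory count 2 to 6, both highest without PTN replicate 1. Among 16 genes of the interferon response B2m, the light chain of class I MHC, fell 2.62-fold and 2.11-fold on the brighter of its 2 probe sets. The dimmer one was also called particular, but it passed the filter on low signals through BSN and HRG arrays alone. It had to differ, so it adds no support. Ifitm1 was lower with a call lost in 5 settings. Of 27 actin and SRF genes Tpm4 and Cnn3 were higher and Tagln2 and Tpm1 lower, and of 16 apoptosis genes Casp2 and Casp6 were higher and Casp1 and Tnfrsf12a lower, each in equal number. The Tpm1 call was lost under median centring and without BSN replicate 1 or 2. That of Casp6 was lost without BSN replicate 3 or PTN replicate 3, and that of Casp1 without HRG replicate 2.

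The largest rises and falls included genes outside these lists. Hhex, a homeobox factor of early endoderm, read 4931, 5117 and 5238 in PTN, 2369, 1870 and 1959 in BSN, and 295, 334 and 311 in HRG, the last below the floor. Its groups were tight and did not overlap, with PTN 2.47-fold above BSN (adjusted p = 9.7e-05). Rnase4, a secreted ribonuclease, read 12494, 8555 and 8506 against 2468, 3517 and 2606 and 1453, 1421 and 910, 3.41-fold and 7.76-fold higher. Enpp2, autotaxin, which makes lysophosphatidic acid, was at 2950 ± 496, 1286 ± 145 and 418 ± 77.8, below the floor in HRG. Fat4, a large protocadherin, was at 4512 ± 515, 1644 ± 195 and 959 ± 311. Homer1, a scaffold of glutamate receptors, was at 2357 ± 145 in PTN and below the floor in BSN and HRG on the probe set the rule chose, 1 of 2 that were particular of 3. Marchf11, a ubiquitin ligase, was 1.56-fold above BSN and 8.14-fold above HRG, with the call lost without BSN replicate 3 or PTN replicate 3. Rpp30, a subunit of RNase P, was at 2694 ± 624 in PTN, 564 ± 290 in BSN and 986 ± 338 in HRG, with the call lost without HRG replicate 2.

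Among the falls Dusp2, a phosphatase of MAP kinases, read 652, 510 and 507 in PTN, 5833, 5964 and 5697 in BSN, and 1914, 2477 and 2036 in HRG. The PTN mean lay below the floor and all other arrays well above it. Tmbim1, a membrane protein of the BAX inhibitor family, read 1815, 1807 and 1490 against 6489, 6096 and 6437 and 7858, 7505 and 5684, 3.71-fold and 4.06-fold lower, with overlap between BSN and HRG. Hopx, an atypical homeodomain protein, was at 521 ± 17.8, 1669 ± 265 and 2893 ± 40.2, below the floor in PTN. Bace2, an aspartyl protease, was 3.2-fold and 6.02-fold lower at 785 ± 113 in PTN.

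Among markers of other cell types Cxcl12 alone was particular to PTN. The ureteric epithelial list had a summed signal of 117392 to 139765 in PTN, 151746 to 159030 in BSN and 157206 to 173243 in HRG, with 3 of 9 tested members particular and lower (Cdh16, Krt8, Krt18) and Pax8 below the floor on all arrays. Stromal markers summed to 7645 to 7830 in PTN, 6992 to 7691 in BSN and 5105 to 6644 in HRG. Of 6 tested Cxcl12 alone was particular, and Pdgfra, Pdgfrb, Lum, Postn and Twist1 were below the floor on all arrays. Nephron progenitor markers summed to 748 to 1518, 1240 to 1988 and 3004 to 3588, with Wt1, Meox2, Gdnf and Itga8 below the floor. Endothelial markers summed to 2905 to 3404, 3094 to 3627 and 2848 to 3740, and blood markers to 4913 to 6472, 6408 to 7815 and 5489 to 6886, with Pecam1, Flt1, Ptprc and Hbb below the floor. Neural markers summed to 11453 to 13766 in PTN, 14440 to 15451 in BSN and 8764 to 9992 in HRG, with Snap25, Nefl, Nefm, Stmn2 and Sox10 below the floor. Nephron tubule markers summed to 5682 to 7017, 6298 to 6810 and 8186 to 10069, with 8 of 12 below the floor on all arrays. Urothelial and squamous markers summed to 1676 to 3091, 2368 to 3230 and 17766 to 29039, with 6 of 8 below the floor on all arrays. Only Krt5 and Sprr1a of these were tested. Krt5 gave no pooled call (pooled log2 change -0.05), and Sprr1a passed as lower in the pooled comparison (-2.78) and was not particular. The part of these sums in the results was not tested.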

How the data were processed

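The deposited values are Affymetrix RAE230A signal intensities on a linear scale, made with GCOS per the submitters' processing notes, with version and scaling setting not stated there. Of 15923 probe sets, 57 were controls and left out. A probe set was kept (10106 were) if 3 or more of the 9 arrays had it above their own 40th percentile. Probe sets with 1 symbol in the platform's table numbered 12783, with several 312 and with none 2771, and only the first were named. Signals were transformed as log2 of the intensity plus 16. One linear model over all 9 arrays was fitted with limma 3.58.1 in R 4.3.3 (moderated by eBayes with a trend on intensity; 6 residual degrees of freedom, 12.7 after moderation). Adjusted p is Benjamini-Hochberg over all kept probe sets, with a threshold of 0.05. The fit was tested on simulated data.

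Arrays of a group are biological replicates per the series design. In list counts a gene with several probe sets is represented by the brightest on average. Genes named were the 12 largest pooled rises and falls among particular probe sets without overlap and with a highest group mean above the median signal (2280.9), passing over provisional names. To these were added up to 3 members of each list in each direction among pooled calls, and genes always named, of which Wnt11, Pax2, Actb, Gapdh and Sdc3 had no kept probe set with 1 symbol. Other members that complete a count, or that set a result beside a relative, were chosen with their values in view and not refitted under each setting. The comparison and the 42 lists were chosen with earlier results of these data known. Motifs were searched in RefSeq promoters by symbol. Deviations from group means of arrays with one replicate number had r of 0.118 to 0.332 for HRG and PTN. For BSN and PTN r was -0.097 to -0.0112, and for BSN and HRG -0.0551 to 0.13. Arrays with unlike numbers were not compared, so these values cannot decide whether replicate numbers mark pairs, and the labels gave no pairing. Python 3.11.15 and matplotlib 3.10.9 drew the figures.

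The alternatives were quantile normalization, median centring, a pseudocount of 64 or 1, a 60th percentile filter or none, eBayes without the trend, weighted arrays, a replicate block, each array left out, an adjusted p under 0.01, a 2-fold minimum, only the groups compared, BSN and HRG as 1 group, the larger pairwise p, and for lists averaging over each gene's probe sets.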

Additional observations from a re-analysis of the deposited data

How the results depend on the processing

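Of 10106 kept probe sets 2797 passed in the pooled comparison, 2276 against BSN, 2603 against HRG and 1180 in all 3 with one sign. These counts stayed within 1.5 times of those values under the alternatives tried, other than the following. Array weights gave 3480 against BSN and 1811 particular probe sets. An adjusted p under 0.01 left 1504, 1066, 1475 and 515 in that order, and a 2-fold minimum 444, 427, 748 and 170. Treating BSN and HRG as 1 group of 6 gave 1579 pooled calls. With 1 array left out the counts ranged from 2014 to 3418 pooled, 1345 to 3197 against BSN, 1826 to 3094 against HRG and 778 to 1654 particular. With the replicate block they were 2879, 2362, 2690 and 1242, and the block ended the named calls of Ret and Gpc6 only. The larger of both pairwise p-values, adjusted as such, gave 815 particular probe sets. No particular probe set was particular with the opposite sign under any alternative compared; 839 of the 1180 were shared under median centring and 869 under quantile normalization. Of 108 named particular probe sets 70 kept the call in all 18 settings that could be fitted for them, and of 1932 particular calls of named probe sets under alternatives 177 were lost. Of 2926 pooled changes of named genes under alternatives 79 lost the pooled threshold. The sign turned under some alternatives for 2 named genes with no pooled call, Cdh1 (-0.32 to 0.069) and Sdc1 (-0.21 to 0.093), and for no called one. Of list counts 620 stayed within 1.5 times of the main count and 102 moved further, mostly counts of a few genes. The number of arrays, and signal close to background for dim probe sets, limit what could be called.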

Other observations

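PTN stood between the other media for a smaller set of genes: 59 probe sets passed against both with opposite signs, Aqp3 among them. Outside the lists, Vldlr, a lipoprotein receptor related to Lrp8 and chosen after its values were seen, was at 11726 ± 1301 in PTN, 6118 ± 827 in BSN and 5315 ± 503 in HRG (SD, n = 3). It was particular and higher on 2 of 3 probe sets, and the dimmest was not called in any of the comparisons with PTN.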
